A study of Homo sapiens with 6 samples.

Results

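The 10 FOXO-axis genes described here were followed in RNA sequencing of MDA-MB-231 cells, a human triple-negative breast cancer (TNBC) line, out of 58735 genes in the count tables. They were the transcription factors FOXO1, FOXO3 and FOXO4, the sestrins SESN1, SESN2 and SESN3, and 4 genes described as responsive to FOXO factors, CCNG2, TXNIP, IRS2 and PIK3IP1. Each was matched by its symbol to 1 gene of the tables, and they were picked with their difference between SCH-treated and vehicle-treated cells already known. Those differences are therefore given as a description, without a test. The cells, labelled wild type, were grown with serum, in RPMI-1640 by the labels but in DMEM by the published methods, and received vehicle or SCH, an aqueous extract of the herb Salvia chinensis Benth, at 100 mg/l for 24 h, with 3 biological repeats in each group. All values belong to this single line at 1 dose and 1 time. The totals over genes were 20291379, 18714240 and 18334857 counts in the vehicle-treated samples and 16836369, 17979434 and 18414924 counts in the SCH-treated samples.

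FOXO factors are forkhead transcription factors that enter the nucleus when insulin and growth factor signalling is low. The kinase AKT phosphorylates them downstream of PI3K, and the 14-3-3 proteins then hold them in the cytoplasm. Nuclear FOXO factors switch on genes of cell cycle exit, stress resistance, autophagy and nutrient control, among them sestrins, which restrain the growth regulator mTORC1 through the GATOR complexes and the kinase AMPK. Many of these genes also answer to p53 or to other stress pathways, and FOXO activity is set mostly on the protein, which was not measured here.

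The cells carried the transcripts of the labelled line. VIM, CD44, CAV1, AXL and EGFR, markers of a mesenchymal-like TNBC line, had between 3007 and 30401 counts in every sample. Of these 5, CD44 did not pass the test (log2 fold change 0.033) and the others were lower after SCH, with log2 fold changes of -1.17 (CAV1), -0.84 (AXL), -0.56 (VIM) and -0.28 (EGFR; adjusted p of 6.48e-05 or less in edgeR). ESR1 had 1 to 4 counts, PGR 0 to 1 and the epithelial cadherin CDH1 1 to 6. ERBB2 (1225 to 1637 counts) and EPCAM (203 to 347 counts), also taken as low in this line, were not near 0. Markers of blood, endothelial and liver cells summed to 60, 72 and 64 counts in the vehicle-treated samples and to 20, 36 and 38 in the SCH-treated samples. The leukocyte marker PTPRC was the most abundant of them in vehicle-treated cells, with 39, 37 and 34 counts against 4, 9 and 3 after SCH, and most of the drop in the sum was its own (log2 fold change -2.75, adjusted p = 8.80e-07 in edgeR). The endothelial marker PECAM1, with 15, 26 and 19 counts against 16, 21 and 30, was the most abundant after SCH and did not pass the test (log2 fold change 0.16, adjusted p = 0.702 in edgeR). The haemoglobin gene HBB was at 0 throughout. Their part in the results was not tested. In bulk samples, fewer cells of a type and less RNA per cell cannot be told apart.

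The stretches below are shown because they hold the FOXO recognition element GTAAACA, or the E-box CACGTG, within the promoter windows of 4 of the 10 genes. The windows run from 250 bases before to 50 bases after each RefSeq start on GRCh38.p14, each is read 5′ to 3′ on the strand of its gene, and capitals mark the motif.
TXNIP, chr1:145996650-145996749, minus strand: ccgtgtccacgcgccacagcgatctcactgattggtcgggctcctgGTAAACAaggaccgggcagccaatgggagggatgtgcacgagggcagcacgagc
FOXO4, chrX:71095863-71095892, plus strand: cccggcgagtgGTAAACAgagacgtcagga
PIK3IP1, chr22:31292454-31292483, minus strand: taaagagaggcTGTTTACcagaacagcata
CCNG2, chr4:77157127-77157206, plus strand: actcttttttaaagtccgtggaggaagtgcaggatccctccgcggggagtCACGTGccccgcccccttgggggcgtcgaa
The element lay at bases -124 to -118 from the start of TXNIP, at 24 to 30 past that of FOXO4 and, in the reverse orientation, at 17 to 23 past that of PIK3IP1. The E-box of CCNG2 lay at bases -30 to -25. These RefSeq starts are not the edges of the gene spans in the count tables. The start used for FOXO4, 71095851, lies before its counted span, which begins at 71096197, and the FOXO4 stretch lies outside that span. The start used for CCNG2, 77157207, lies inside its counted span, which begins at 77157151, as does the E-box. On both strands, GTAAACA was found in 3.42% of all 35116 windows of this length, and in 3 of the 17 windows of the 10 genes. CACGTG, a palindrome, was in 7.26% of all windows and in 1 of the 17. A stress element TGACNNNGC, bound by NRF2, was in 13.3% of all windows and in 3 of the 17, those of FOXO3, SESN1 and IRS2. TGATGCAA, bound by ATF4, was in 0.866% of all windows and in none of the 17. No 2 matches fell in the same gene of the 10, and a match describes the letters only.

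Across the 10 genes, the mean was higher after SCH in 9 and lower in 1, IRS2. The samples of the groups did not overlap in 9 of the 10 (8 higher and 1 lower after SCH), beside 62.4% of all 14736 genes that passed the filter on low counts (31.1% higher and 31.3% lower). All 10 passed this filter. Their median log2 fold change was 0.79, beside -0.0034 over all genes tested. In limma on log2(FPKM + 1) the median of the 10 was 0.44. The values given next are CPM, counts relative to the TMM-normalized size of each library. The plot of CPM by sample shows each value, and the plot of log2 fold changes sets the genes in order.

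**Figure D1:**
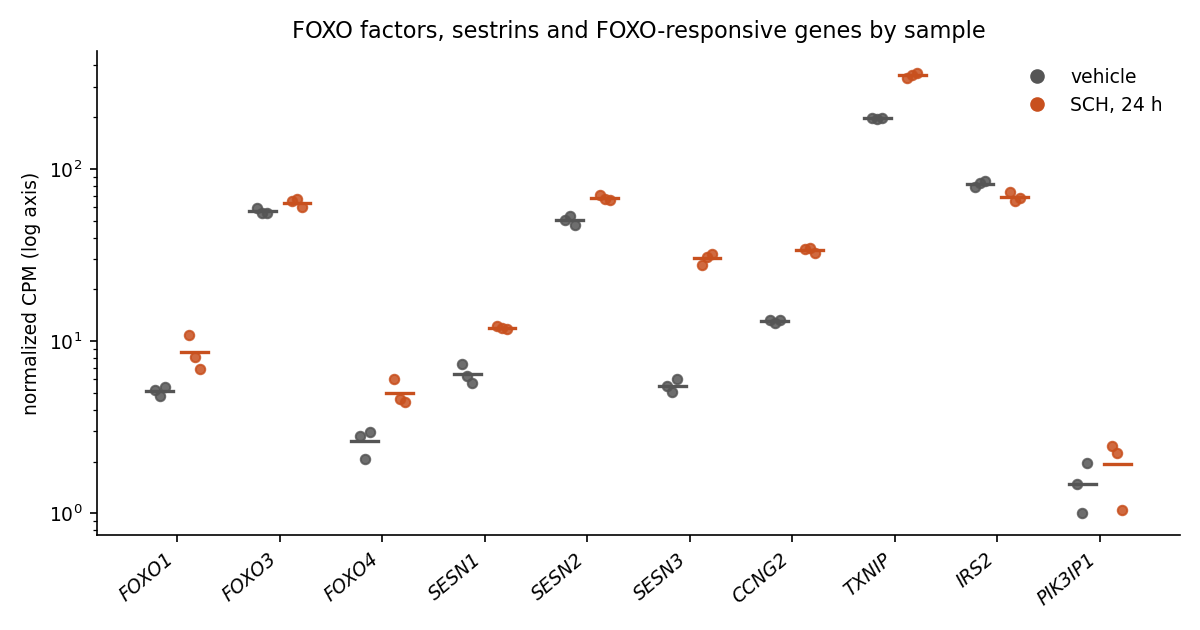
Normalized CPM (vertical axis, log scale) of the 10 genes in the 3 vehicle-treated (grey) and 3 SCH-treated (orange) samples; points are samples and lines are group means. The orange points stand above the grey ones for 8 genes and below them for IRS2, and the groups overlap for PIK3IP1.

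FOXO3 was the most abundant FOXO factor, and its level moved least. FOXO3 (ENSG00000118689, chromosome 6, 108559835 to 108684774, plus strand) had CPM of 59.1, 55.8 and 55.3 in vehicle-treated cells and 65.0, 66.8 and 59.8 in SCH-treated cells. The lowest SCH sample lay just above the highest vehicle sample. The means were 56.7 ± 2.03 and 63.8 ± 3.63 (SD, n = 3), a log2 fold change of 0.17 (SE 0.061). The near-identical pseudogene FOXO3B held 20 to 39 counts a sample, against 984 to 1244 for FOXO3, and reads that fit both copies are uncertain.

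FOXO1 and FOXO4 were both scarce and both higher after SCH. FOXO1 (ENSG00000150907, chromosome 13, 40469953 to 40666597, minus strand) had CPM of 5.18, 4.79 and 5.40 against 10.8, 8.10 and 6.89. Every SCH sample of FOXO1 lay above every vehicle sample, but the SCH samples spread widely, with a coefficient of variation of 23.48% against 6.004% in vehicle. Its means of 5.12 ± 0.308 and 8.61 ± 2.02 (SD, n = 3) gave a log2 fold change of 0.74 (SE 0.15), on 86 to 189 counts a sample. FOXO4 (ENSG00000184481, chromosome X, 71096197 to 71103535, plus strand) had CPM of 2.82, 2.06 and 2.98 against 6.02, 4.62 and 4.42, again without overlap. The means of FOXO4 were 2.62 ± 0.491 and 5.02 ± 0.874 (SD, n = 3), a log2 fold change of 0.93 (SE 0.19) on 37 to 105 counts. In both genes the first SCH sample was the highest.

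On the FPKM scale, which divides by gene length and so allows levels of different genes to be compared, the FOXO factors summed to 8.91 ± 0.371 in vehicle and 11.3 ± 0.980 after SCH (SD, n = 3). FOXO3 made up 79.8% ± 1.33 of this sum in vehicle-treated cells and 71.4% ± 3.78 after SCH. FOXO4 went from 8.23% ± 1.40 to 12.5% ± 1.28 of the sum and FOXO1 from 8.92% ± 0.509 to 11.8% ± 1.82. FOXO6, the remaining FOXO factor and not one of the 10 genes, held 3.09% ± 0.671 and 4.32% ± 0.963. It was near the lower limit of measurement, with 9 to 16 counts in vehicle and 17 to 27 after SCH, and a log2 fold change of 0.80 (SE 0.34; adjusted p = 0.0478, edgeR's quasi-likelihood test with Benjamini-Hochberg adjustment). This call was lost with upper quartile factors as the scaling (adjusted p = 0.0571 in edgeR) and without a filter on low counts (adjusted p = 0.0650 in edgeR). The call was also lost in DESeq2 (adjusted p = 0.116) and when any of 5 samples was left out.

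The sestrins are stress-induced proteins that restrain mTORC1. All 3 had higher CPM after SCH in every sample, by very different amounts. SESN3 (ENSG00000149212, chromosome 11, 95165513 to 95232541, minus strand), the sestrin most closely tied to FOXO factors, had CPM of 5.49, 5.07 and 6.02 in vehicle-treated cells and 27.7, 31.0 and 32.0 in SCH-treated cells. The lowest SCH sample lay far above the highest vehicle sample. Its means were 5.52 ± 0.475 and 30.2 ± 2.25 (SD, n = 3), 5.47 times higher, with a log2 fold change of 2.45 (SE 0.10), the largest of the 10 genes.

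SESN1 (ENSG00000080546, chromosome 6, 108986437 to 109094819, minus strand), best known as a p53 target, had CPM of 7.38, 6.24 and 5.68 against 12.2, 11.97 and 11.8. The SCH samples of SESN1 were almost level with each other, with a coefficient of variation of 1.61% against 13.5% in vehicle. The means of 6.43 ± 0.868 and 12.004 ± 0.193 (SD, n = 3) gave a log2 fold change of 0.90 (SE 0.12). SESN2 (ENSG00000130766, chromosome 1, 28259527 to 28282491, plus strand), the sestrin known to follow amino acid shortage and endoplasmic reticulum stress, had CPM of 50.8, 53.3 and 47.2 against 70.6, 67.0 and 66.2. The groups of SESN2 did not overlap, and the means of 50.4 ± 3.06 and 67.9 ± 2.32 (SD, n = 3) gave a log2 fold change of 0.43 (SE 0.062), the smallest of the sestrins.

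**Figure D2:**
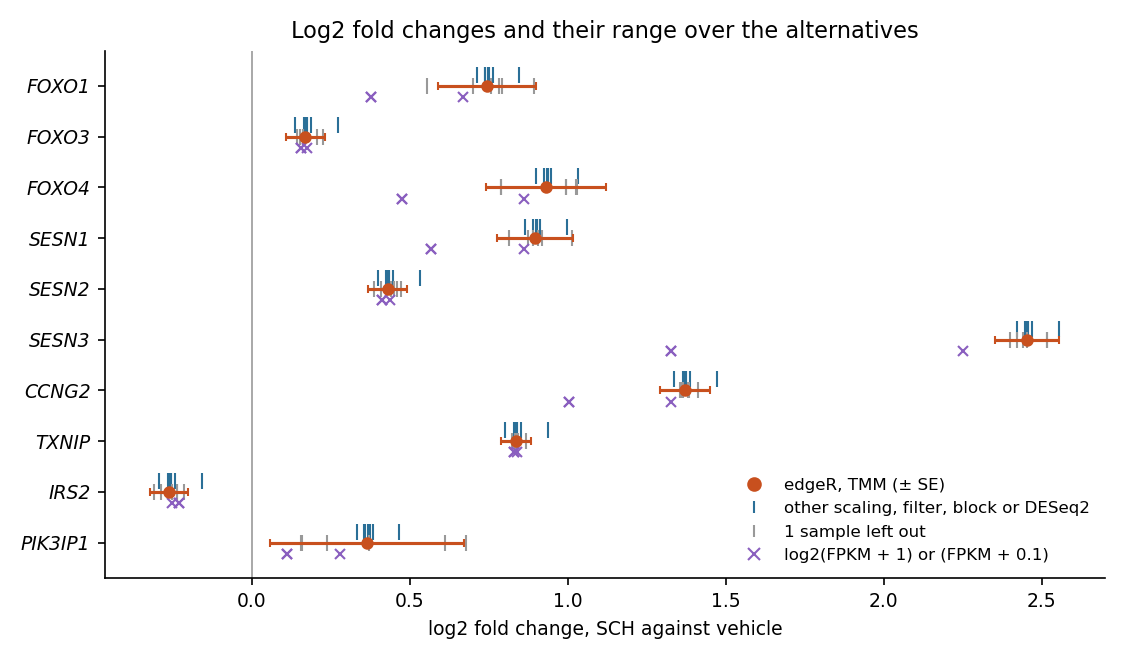
Log2 fold change (horizontal axis, SCH against vehicle, above 0 where higher after SCH) of each of the 10 genes: orange points and bars are the edgeR value and its standard error with 3 samples a group, ticks are other scalings, filters, the replicate block or DESeq2 (blue) and fits with 1 sample left out (grey), and crosses are values from FPKM with a pseudocount. SESN3 (2.45) and CCNG2 (1.37) have the highest edgeR values, and in IRS2 (-0.26) every mark lies below 0.

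SESN2 nevertheless remained the main sestrin transcript per length. The sestrins summed to 15.8 ± 0.907 FPKM in vehicle-treated cells and 24.2 ± 0.564 FPKM after SCH (SD, n = 3). SESN2 held 89.1% ± 0.922 of that sum in vehicle and 79.1% ± 1.11 after SCH. SESN3 went from the smallest share, 3.21% ± 0.462, to 11.5% ± 1.07, past SESN1, which went from 7.66% ± 0.852 to 9.42% ± 0.0507. The order of SESN1 and SESN3 was thus exchanged between the groups.

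**Figure D3:**
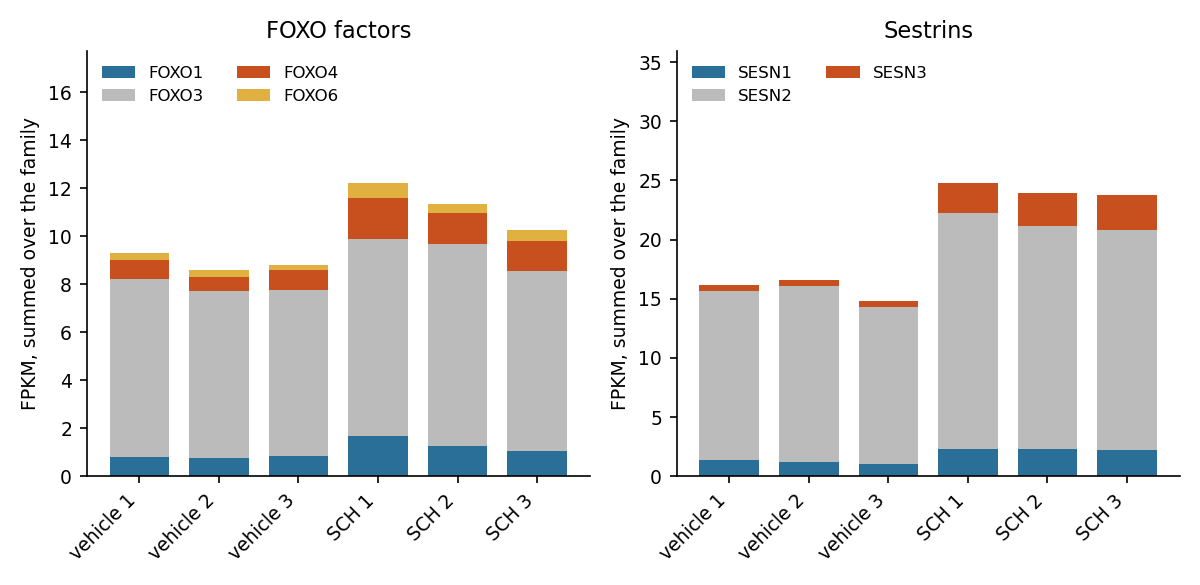
Stacked bars of FPKM (vertical axis, from 0), summed over the FOXO factors (left) and the sestrins (right), with 1 bar for each of the 6 samples and 1 colour for each gene. FOXO3 and SESN2 (grey) take up most of every bar, and the SESN3 part is thicker in the 3 SCH samples.

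Among the FOXO-responsive genes, CCNG2 and TXNIP were higher after SCH with little spread between samples. CCNG2 (ENSG00000138764, chromosome 4, 77157151 to 77433388, plus strand) encodes cyclin G2, an unusual cyclin that goes with cell cycle arrest rather than progression. Its CPM was 13.3, 12.8 and 13.3 in vehicle-treated cells and 34.5, 35.0 and 32.5 in SCH-treated cells, with no overlap. The means of 13.2 ± 0.298 and 34.0 ± 1.30 (SD, n = 3) gave a log2 fold change of 1.37 (SE 0.080).

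TXNIP (ENSG00000265972, chromosome 1, 145992435 to 145996600, minus strand) encodes an alpha-arrestin that binds thioredoxin and lowers glucose uptake. It had CPM of 197, 196 and 198 against 338, 353 and 362. The vehicle samples of TXNIP were nearly identical, and all SCH samples stood well above them. With means of 197 ± 1.43 and 351 ± 12.2 (SD, n = 3), TXNIP had a log2 fold change of 0.83 (SE 0.047) and, with at least 3510 counts a sample, the deepest measurement of the 10 genes.

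IRS2 and PIK3IP1 act on PI3K, the first as a docking protein that carries signals from the insulin and IGF1 receptors and the second as a membrane inhibitor of the kinase. IRS2 (ENSG00000185950, chromosome 13, 109752698 to 109786568, minus strand) had CPM of 79.0, 83.1 and 85.02 in vehicle-treated cells and 73.8, 64.9 and 67.5 in SCH-treated cells. All SCH samples of IRS2 lay below the vehicle samples, opposite in direction to the other 9 genes, with means of 82.4 ± 3.07 and 68.7 ± 4.56 (SD, n = 3) and a log2 fold change of -0.26 (SE 0.060). PIK3IP1 (ENSG00000100100, chromosome 22, 31281593 to 31292534, minus strand) had CPM of 1.49, 1.00 and 1.97 against 2.47, 2.25 and 1.05. Here the groups overlapped, since the third SCH sample lay among the vehicle samples. Its log2 fold change was 0.36 (SE 0.31), on 18 to 43 counts a sample. With 1 sample left out it ranged from 0.16, without the second vehicle sample or without the first SCH sample, to 0.68, without the third SCH sample.

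Per length, the 10 genes covered a wide range of levels. In vehicle-treated cells the order of mean FPKM was TXNIP (52.5 ± 0.343), SESN2 (14.1 ± 0.866), IRS2 (9.78 ± 0.360), FOXO3 (7.10 ± 0.256), CCNG2 (1.70 ± 0.0377), SESN1 (1.21 ± 0.164), FOXO1 (0.794 ± 0.0472), FOXO4 (0.735 ± 0.137), SESN3 (0.505 ± 0.0430) and PIK3IP1 (0.377 ± 0.122; SD, n = 3 throughout). The samples of FOXO1 and FOXO4 overlapped in that order, as did those of SESN3 and PIK3IP1, and no other neighbours did. TXNIP was above 94.2% of the genes tested in vehicle-treated cells and PIK3IP1 above 10.3%. After SCH, IRS2 (8.20 ± 0.566) and FOXO3 (8.03 ± 0.476) overlapped, and SESN3 (2.78 ± 0.197) stood above SESN1 (2.28 ± 0.0448). FOXO4 (1.41 ± 0.251) and FOXO1 (1.34 ± 0.320) again overlapped, and PIK3IP1 (0.491 ± 0.196) remained the lowest.

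In GENCODE annotation, FOXO3, FOXO4, SESN2, CCNG2 and TXNIP shared no exonic base with another gene. The largest overlap was in SESN1, where 7.09% of the exonic bases were also those of the opposite-strand gene AL390208.1, which had 0 to 1 counts. In FOXO1 this share was 4.32%, with the same-strand gene LINC00598 at 0 to 2 counts. The other partners lay on the opposite strand. The share was 1.41% in IRS2, with AL162497.1 at 0 counts, and 0.946% in PIK3IP1, with PIK3IP1-AS1 at 0 to 2 counts. In SESN3 it was 0.880%, with AP000787.1 at 8 to 27 counts. The strand setting of the counting is not given in the sources used here, so reads of opposite-strand partners cannot be told apart from those of the gene.

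Beyond the 10 genes, 40 other genes described as FOXO-responsive were examined, and 35 of them passed the filter. Of these, 23 rose, 5 fell and 7 did not pass the threshold of an adjusted p under 0.05, which is 65.7% raised and 14.3% lowered, beside 29.3% and 29.4% of all genes tested. Their median log2 fold change was 0.47, and 0.26 in limma on log2(FPKM + 1) without a filter. The split was 25 raised and 2 lowered with library size alone as the scaling, 20 and 6 with upper quartile factors, 21 and 2 in DESeq2, and 20 to 24 raised and 2 to 5 lowered when a sample was left out. The list was written with earlier results of these data known, and nothing particular to it follows from these shares. The 5 genes that were not tested were FASLG, SELENOP, PCK1, G6PC and USP2.

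CDKN1A, the cell cycle inhibitor p21 and also a p53 target, rose most, from 103 to 525 CPM (log2 fold change 2.34, SE 0.055, adjusted p = 1.52e-19 in edgeR). YPEL3, a small protein tied to growth arrest, had CPM of 3.28, 4.01 and 3.99 in vehicle-treated cells and 11.01, 10.3 and 10.7 in SCH-treated cells (log2 fold change 1.51, SE 0.13, adjusted p = 1.29e-09 in edgeR). Every SCH sample of YPEL3 was well above every vehicle sample. IGFBP1, which binds IGF1 outside the cell, went the opposite way, with CPM of 49.2, 52.4 and 55.2 against 17.3, 19.2 and 16.4 (log2 fold change -1.57, SE 0.077, adjusted p = 5.22e-14 in edgeR). EIF4EBP1, which blocks cap-dependent translation when mTORC1 is low, fell from 148 to 93.4 CPM (log2 fold change -0.67, adjusted p = 1.08e-08 in edgeR).

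The following genes of that list were chosen after their values were seen. Of 6 genes of autophagy and mitophagy, 5 rose and none fell, beside 29.3% raised and 29.4% lowered among all genes tested. Those that rose include GABARAPL1 (log2 fold change 1.18) and BNIP3L (0.90), which bring cargo to autophagosomes. The count was 6 raised with library size alone as the scaling and 4 with upper quartile factors. PDK4 (1.41), KLHL24 (1.35) and the transcriptional repressor BCL6 (1.03) also rose. CDKN1B, the cell cycle inhibitor p27 and an often used FOXO readout, had a log2 fold change of -0.10 (adjusted p = 0.151, edgeR). The element GTAAACA was in the promoter windows of 6 of the 30 listed genes with a window, BCL2L11, SELENOP, HBP1, MXI1, YPEL3 and TSC22D3, beside 4.19% of all genes with a window. The log2 fold changes of those that were tested, all but SELENOP, ran from 0.24 (MXI1) to 1.51 (YPEL3), in a list of which 65.7% rose, and nothing about the motif follows from them.

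The PI3K and AKT genes that act upstream of FOXO factors moved in both directions. Of 26, 23 were tested, of which 10 rose, 9 fell and 4 did not pass, 82.6% changed beside 58.7% of all genes tested, with a median log2 fold change of 0.12. With library size alone as the scaling the split was 12 raised and 6 lowered and the median 0.22. Without a filter the median was 0.0063, and in limma on log2(FPKM + 1) without a filter -0.0026. It ranged from 0.077 to 0.14 when a sample was left out. IRS1, the relative of IRS2 with the same docking role, fell from 203 ± 7.14 to 112 ± 3.03 CPM (SD, n = 3; log2 fold change -0.86, SE 0.051, adjusted p = 1.28e-12 in edgeR). The receptor IGF1R fell from 34.9 ± 1.43 to 21.1 ± 2.29 CPM (log2 fold change -0.73, SE 0.082, adjusted p = 6.06e-08 in edgeR).

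PIK3R3 and PIK3R1, regulatory subunits of PI3K, both rose, while PIK3R2 was too scarce to be tested. PIK3R3 had CPM of 9.48, 7.07 and 10.6 in vehicle-treated cells and 23.0, 19.2 and 21.1 in SCH-treated cells (log2 fold change 1.22, SE 0.12, adjusted p = 5.15e-09 in edgeR). PIK3R1 rose from 28.8 ± 2.35 to 46.8 ± 4.32 CPM (log2 fold change 0.70, SE 0.078, adjusted p = 5.62e-08 in edgeR). In all, 4 of the 6 tested PI3K subunits rose and none fell, beside 29.3% raised and 29.4% lowered among all genes tested. The count was 5 of 6 with library size alone. This grouping by role was made after the values were seen.

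Proteins that modify FOXO factors or hold them out of the nucleus formed, together with FOXO6, a list of 26 genes, all tested. Of these, 11 rose, FOXO6 among them, 7 fell and 8 did not pass, 69.2% changed beside 58.7% of all genes tested. The median log2 fold change was -0.012 and ranged from -0.044 to 0.091 over the alternatives. With library size alone the split was 13 raised and 5 lowered, and in limma on log2(FPKM + 1) without a filter 6 raised and 6 lowered. The deacetylases SIRT2 (42.3 to 74.7 CPM, log2 fold change 0.82, adjusted p = 2.62e-10) and SIRT1 (30.0 to 45.7 CPM, 0.60, adjusted p = 2.11e-07) rose most among genes with at least 100 counts on average, in edgeR's test. SKP2, the ubiquitin ligase subunit that targets FOXO1 and p27, fell from 40.2 to 21.0 CPM (log2 fold change -0.93, SE 0.082, adjusted p = 1.07e-09 in edgeR). PRMT1, which methylates FOXO1 next to its AKT site, fell from 487 to 270 CPM (log2 fold change -0.85, adjusted p = 1.83e-11 in edgeR). In SIRT2, SIRT1, SKP2 and PRMT1 the groups did not overlap.

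**Figure D4:**
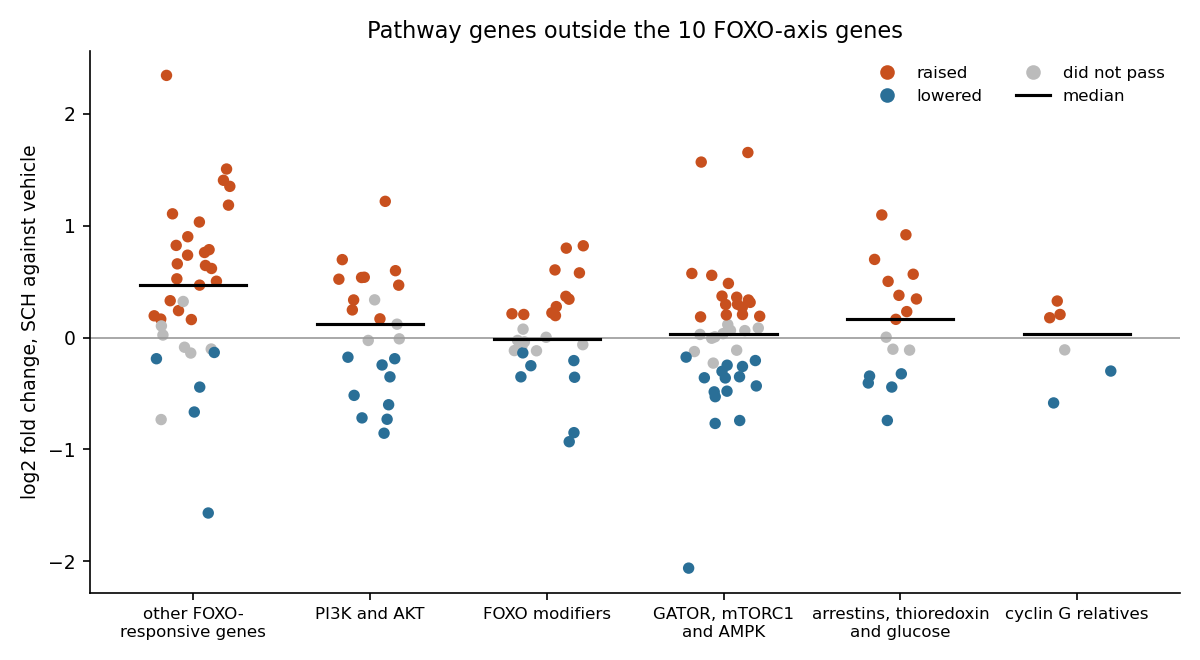
Log2 fold change (vertical axis, SCH against vehicle) of each tested gene outside the 10, in 6 lists around them; points are genes, coloured by whether they rose, fell or did not pass edgeR's test at an adjusted p under 0.05, and black lines are medians. The median of the other FOXO-responsive genes is 0.47, and those of the remaining lists lie between -0.012 and 0.16.

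Downstream of the sestrins, genes of the GATOR, mTORC1 and AMPK modules showed no common direction. Of 43, 42 were tested, of which 16 rose, 15 fell and 11 did not pass, 73.8% changed beside 58.7% of all genes tested, with a median log2 fold change of 0.031 that ranged from -0.00087 to 0.13 over the alternatives. With library size alone the split was 20 raised and 12 lowered. ULK1, the autophagy kinase that mTORC1 inhibits and AMPK activates, had CPM of 29.8, 30.4 and 26.0 in vehicle-treated cells and 99.1, 86.2 and 86.3 in SCH-treated cells (log2 fold change 1.65, SE 0.072, adjusted p = 6.22e-15 in edgeR). All SCH samples of ULK1 were far above the vehicle samples. RPTOR, the subunit that defines mTORC1, fell from 103 to 60.6 CPM (log2 fold change -0.77, SE 0.062, adjusted p = 2.66e-10 in edgeR).

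RRAGD, a RAG GTPase that brings mTORC1 to the lysosome, rose from 20.6 to 30.6 CPM (log2 fold change 0.57, adjusted p = 7.96e-07 in edgeR). C12orf66, a subunit of KICSTOR, which anchors GATOR1 at the lysosome, fell from 10.2 to 6.07 CPM (log2 fold change -0.74, adjusted p = 4.04e-05 in edgeR). Grouped by complex after the values were seen, 3 of the 4 RAG GTPases rose and none fell, beside 29.3% raised and 29.4% lowered among all genes tested. Of GATOR2, the complex that SESN2 binds, 1 of 5 genes rose and 3 fell, and of GATOR1, 2 of 3 fell. Of 6 AMPK subunits, 3 rose and 2 fell, and of 4 KICSTOR genes, 1 rose and 1 fell. Of 5 LAMTOR genes, none rose and 1 fell. Only 1 of the 3 GATOR1 genes fell with library size alone as the scaling. Under that scaling 2 LAMTOR and 2 KICSTOR genes rose, and 1 AMPK subunit fell. With upper quartile factors 2 LAMTOR genes fell and 2 AMPK subunits rose.

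TXNIP was next set beside its relatives and partners. A list of 19 genes covered alpha-arrestins, the thioredoxin system and glucose uptake, and also held HK1, HK2, MLXIP, MLXIPL, MLX, ITCH, NEDD4L and NLRP3. Of the 19, 17 were tested, of which 9 rose, 5 fell and 3 did not pass. Changed genes were 82.4%, beside 58.7% of all genes tested, and the median log2 fold change was 0.16. That median was 0.27 with library size alone, 0.080 in limma on log2(FPKM + 1) without a filter, 0.091 without the first vehicle sample, 0.10 without the second and 0.23 without the third SCH sample. With upper quartile factors the split was 8 raised and 7 lowered. ARRDC4, the closest relative of TXNIP, had CPM of 7.28, 7.46 and 7.93 in vehicle-treated cells and 13.1, 14.5 and 15.1 in SCH-treated cells (log2 fold change 0.92, SE 0.11, adjusted p = 1.43e-07 in edgeR). ARRDC3, which sends membrane receptors to degradation, had CPM of 34.9, 38.2 and 38.2 against 74.9, 91.4 and 71.5 (log2 fold change 1.10, SE 0.078, adjusted p = 3.12e-11 in edgeR). In both arrestins the SCH samples lay above the vehicle samples without overlap. All 4 alpha-arrestins tested besides TXNIP rose, beside 29.3% of all genes tested, and this group was formed after the values were seen. The same 4 of 4 rose under the 3 other scalings. TXNRD2, the mitochondrial thioredoxin reductase, fell from 30.9 to 18.5 CPM (log2 fold change -0.74, adjusted p = 8.22e-08 in edgeR). NEDD4L, a ubiquitin ligase of the family that acts on arrestin cargo, fell from 377 to 278 CPM (log2 fold change -0.44, adjusted p = 1.61e-08 in edgeR).

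CCNG2 and its relative CCNG1 went in opposite directions. CCNG1, cyclin G1 and a p53 target, had CPM of 60.1, 59.0 and 66.2 in vehicle-treated cells and 48.9, 51.0 and 50.6 in SCH-treated cells (log2 fold change -0.30, SE 0.062, adjusted p = 2.43e-04 in edgeR), while CCNG2 was higher in every SCH sample. Per length, CCNG1 nevertheless remained above CCNG2, at 15.7 against 4.42 FPKM after SCH and 19.3 against 1.70 FPKM in vehicle. Among 7 relatives and partners of the G cyclins, 6 were tested, of which 3 rose, 2 fell and 1 did not pass, 83.3% changed beside 58.7% of all genes tested. With upper quartile factors 2 rose and 3 fell, in DESeq2 2 rose and 2 fell, and without the first SCH sample 1 rose and 2 fell. CCNI rose from 294 to 368 CPM (log2 fold change 0.33, adjusted p = 1.18e-05 in edgeR) and GAK from 67.8 to 78.3 CPM (0.21, adjusted p = 0.00854). The call of GAK was lost without the first SCH sample (adjusted p = 0.0613 in edgeR) and in limma on log2(FPKM + 1) (adjusted p = 0.0657). CCNF, the cyclin F of a ubiquitin ligase, fell from 52.5 to 35.0 CPM (log2 fold change -0.58, adjusted p = 6.54e-08 in edgeR).

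**Figure D5:**
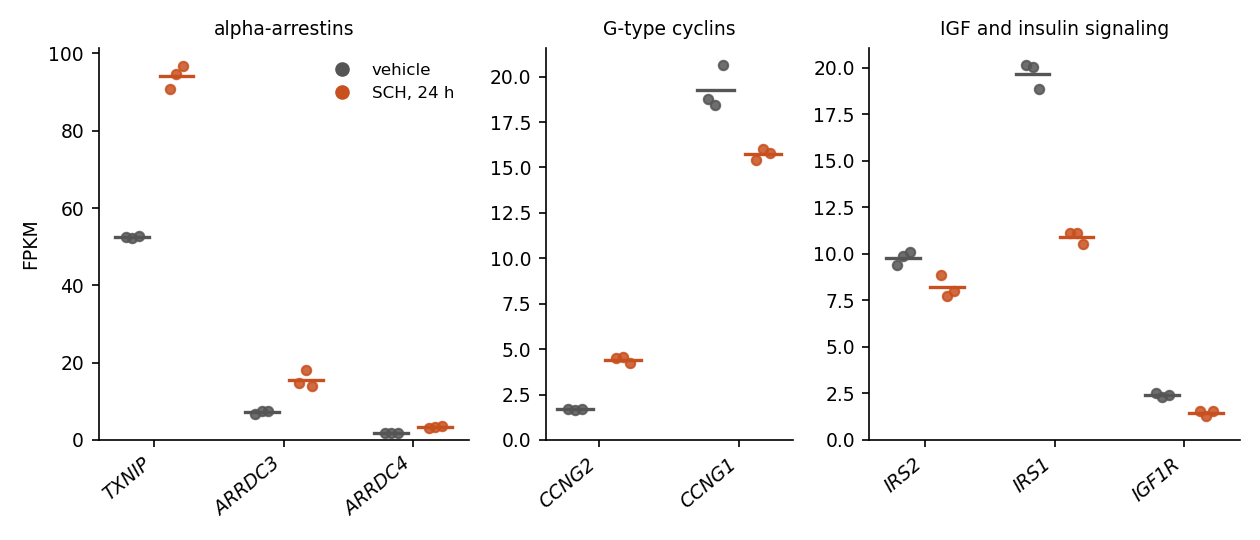
FPKM (vertical axis, from 0, 1 scale a panel) of alpha-arrestins, G-type cyclins, and IRS2, IRS1 and IGF1R in 3 vehicle-treated (grey) and 3 SCH-treated (orange) samples; points are samples and lines are means. TXNIP, ARRDC3, ARRDC4 and CCNG2 are higher after SCH, and CCNG1, IRS2, IRS1 and IGF1R are lower.

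IRS2 and IRS1, by contrast, were both lower after SCH. On the FPKM scale IRS2 went from 9.78 to 8.20 and IRS1 from 19.7 to 10.9, so that their levels lay closer together in SCH-treated cells.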

How the data were processed

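RNA was read as poly-T purified mRNA on Illumina HiSeq. The authors deposited raw counts per gene, not normalized, and FPKM values, which were proportional within each sample to count over gene length. The submitters' processing notes name CASAVA 1.8, HISAT2 2.0.5, featureCounts 1.5.0-p3, DESeq2 1.20.0 and GRCh38, without stating a role. Coordinates are those of the deposited tables, and all 58735 IDs are in GENCODE release 29.

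The test was that of edgeR 4.0.16 under R 4.3.3 (TMM, filterByExpr, quasi-likelihood fit of SCH against vehicle without covariates, Benjamini-Hochberg over 14736 genes). The SE of a log2 fold change is its size over the root of its F statistic. The common biological coefficient of variation was 5.17%. Groups came from the sample labels. No samples of a group were copies, since counts differed by 2.12 to 5.75 times sampling noise. Totals of 16836369 to 20291379 counts limit precision for genes with few counts. SOD2 has 2 IDs, and the one with the counts was used.

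The 10 genes and all lists were chosen with earlier results of these data known. Named by rule outside them were FOXO6, the cell type markers and, per list, the 2 raised and 2 lowered genes with the largest change past the threshold and a mean count of at least 100. Other genes were named after their values were seen. Alternatives were other scalings and filters, DESeq2 1.42.0, limma 3.58.1 on log2(FPKM + 1) and log2(FPKM + 0.1), the replicate block and each sample left out. Scripts were tested on simulated data. Promoter windows are from RefSeq. Proteins were not analysed here. Figures used Python 3.11.15 and matplotlib 3.10.9.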

Additional observations from a re-analysis of the deposited data

How the results depend on the processing

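All 10 FOXO-axis genes kept the sign of their log2 fold change under all 16 alternatives, with ranges of 0.38 to 0.89 (FOXO1), 0.14 to 0.27 (FOXO3), 0.47 to 1.03 (FOXO4), 0.57 to 1.01 (SESN1), 0.39 to 0.53 (SESN2), 1.33 to 2.56 (SESN3), 1.00 to 1.47 (CCNG2), 0.80 to 0.94 (TXNIP), -0.31 to -0.16 (IRS2) and 0.11 to 0.68 (PIK3IP1). The lowest values of the scarce genes came from log2(FPKM + 1), which understates the change of low genes, and there the median of the 10 was 0.44, with or without the filter. Of the 25 genes named by rule from the lists, FOXO6 included, 23 kept direction and side of the threshold. Genes named after their values were seen were not followed singly. FOXO6 lost its call in several, and GAK lost its call without SCH replicate 1 (adjusted p = 0.0613 in edgeR) and in limma on FPKM. The count of changed genes was 8650 and ranged from 6909 (limma on log2(FPKM + 1) without a filter) to 8814 (library size only), with 7919 in DESeq2 and 7809 to 8489 when a sample was left out. With library size only, the median of all genes was 0.099 in place of -0.0034, and the raised share of the calls was 62.6% in place of 49.9%.

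With library size only the medians of the lists were 0.22 (PI3K and AKT), 0.091 (FOXO modifiers), 0.57 (other FOXO-responsive genes), 0.13 (GATOR, mTORC1 and AMPK), 0.27 (arrestins and thioredoxin) and 0.14 (relatives of G cyclins). With upper quartile factors they were -0.044 (modifiers) and 0.0011 (G cyclins). Without a filter they were 0.0063 (PI3K and AKT), 0.0062 (modifiers), 0.34 (responsive) and 0.0034 (G cyclins), and with at least 10 counts -0.031 (modifiers). In limma on log2(FPKM + 1) the responsive median was 0.33, and without a filter 0.26, with -0.0026 (PI3K and AKT), 0.080 (arrestins) and -0.0011 (G cyclins). Leaving out a sample gave 0.091 (without vehicle replicate 1) to 0.23 (without SCH replicate 3) for arrestins, -0.021 to 0.016 for modifiers, and 3 to 5 changed G cyclin relatives, 3 without SCH replicate 1. The causes were not tested.

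With the replicate number as a block 8705 genes changed. Deviations of same-numbered samples correlated at 0.046, -0.022 and 0.022, and those of differently numbered samples at -0.084 to 0.066. With 3 samples a group, these correlations cannot decide whether same-numbered samples share more than a number. Genes at 50 counts or fewer, as PIK3IP1 and FOXO6, are limited by depth.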
